A study of Mus musculus with 2 samples.

Results

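This section describes 9 genes that set calcium entry, calcium storage and membrane potassium currents in arterial smooth muscle, among the 33696 genes of a single-cell RNA-seq data set of mouse abdominal aorta. They are *Cacna1c*, *Cacnb2*, *Kcnma1*, *Kcnmb1*, *Kcnq5*, *Ryr2*, *Itpr1*, *Atp2a2* and *Pln*, chosen by symbol, and all 9 were found in both libraries. Both groups were male C57BL/6J mice, 5 months old and without any transgene. The Control group received saline. The AngII+HS group received angiotensin II from an implanted subcutaneous pump at 1500 ng/kg/min together with sodium chloride and potassium chloride in the drinking water, and both groups were examined on day 28. Each group gave 1 library from aortic tissue stated to be pooled from 5 mice, although the extraction protocol names fewer animals. With 1 library per group no test between the groups was possible. The spread between animals is unknown, so each interval below is a 95% exact interval that covers counting error only.

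A vascular smooth muscle cell (VSMC) contracts when calcium enters through voltage-gated L-type channels or leaves the sarcoplasmic reticulum, its internal calcium store. Large-conductance calcium-activated potassium (BK) channels open on local calcium release and make the membrane potential more negative, which closes the L-type channels again. Calcium is returned to the store by the SERCA pump, which phospholamban restrains.

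The level of a gene is given as CPM, the number of its unique molecular identifiers (UMIs, each one captured RNA molecule) per 1000000 UMIs of the cells considered. Ratios are AngII+HS over Control on the log2 scale. After filtering and doublet removal, 10269 Control cells with 75265697 UMIs and 19734 AngII+HS cells with 80416904 UMIs remained. Cells were named from marker genes, so each name stands for a cluster that resembles that type. VSMCs, defined by *Myh11*, *Tagln*, *Acta2*, *Cnn1*, *Smtn* and *Lmod1*, made up 5102 Control cells (49.7%) and 698 AngII+HS cells (3.54%). The median depth of these cells was 9933 and 8743 UMIs. The 2 deposited barcode lists shared 67 barcodes, and each list had the length of the other library's matrix. Each matrix was assigned to the group of its own recorded sample, and all directions given here would turn around if the matrices had been exchanged.

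Over all cells of a library, each of the 9 genes was lower in AngII+HS, and 8 of 9 were at least 2-fold lower, where 11.5% of 20360 genes were. None was at least 2-fold higher, where 20.3% of genes were. *Ryr2* went from 214 to 30.1 CPM (log2 ratio −2.83), *Kcnmb1* from 108 to 16.8 CPM (−2.69) and *Cacnb2* from 342 to 60.7 CPM (−2.49). The smallest difference was that of *Pln*, from 9.59 to 4.86 CPM (−0.98). VSMCs held 70.6% of all UMIs in Control and 7.75% in AngII+HS. In such whole-library values, fewer cells of a type and less RNA per cell cannot be told apart.

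The cells that carried these transcripts differed between the libraries. In Control, VSMCs held from 76.5% (*Itpr1*) to 96.2% (*Kcnmb1*) of the UMIs of 8 members, and 38.9% of those of *Pln*. In AngII+HS, VSMCs still held 83.3% of *Kcnmb1* and 64.2% of *Ryr2* UMIs. They held 48.2% of *Cacnb2*, 22.6% of *Cacna1c* and 15.7% of *Kcnma1* UMIs. Fibroblasts, with 35.1% of all UMIs of that library, held 77.0% of its *Kcnma1* and 52.9% of its *Cacna1c* UMIs. Pericyte-like cells held 58.0% of the *Pln* UMIs in Control and 70.1% in AngII+HS, on 1.87% and 1.40% of all UMIs.

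**Figure D1:**
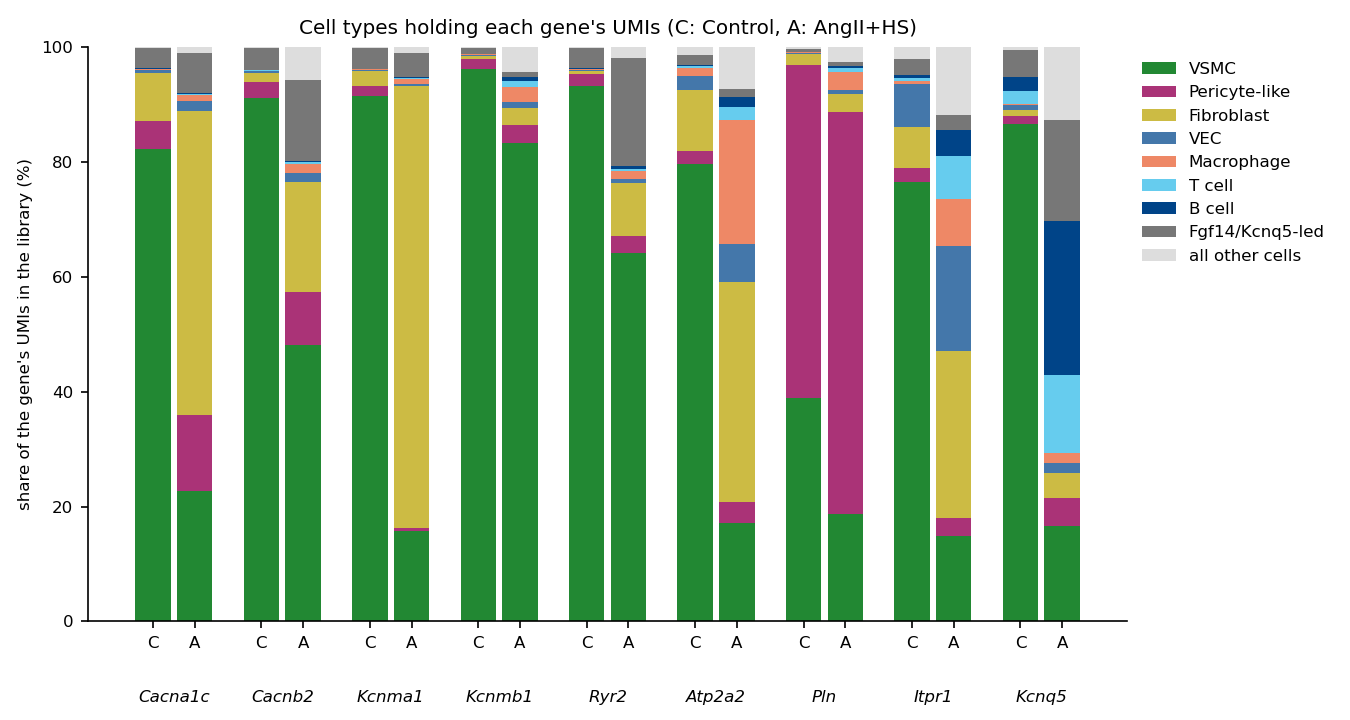
Stacked bars give the share (%) of each gene's UMIs found in each cell type, for Control (C) and AngII+HS (A). VSMCs held most UMIs of 8 genes in Control, whereas in AngII+HS fibroblasts held 77.0% of the *Kcnma1* UMIs and VSMCs kept 83.3% of the *Kcnmb1* UMIs.

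Within VSMCs the picture was different, and most members lay close to their Control level. None of the 9 genes was at least 2-fold lower, where 10.6% of 15578 genes with at least 20 UMIs were, and 1 of 9, *Pln*, was at least 2-fold higher, where 6.47% of genes were. The median log2 ratio of the 9 genes was −0.18, beside −0.04 over all 15578 genes. The ratios of single members stood between the 25.9th (*Itpr1*) and the 94.6th percentile (*Pln*) of all genes.

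The L-type channel was represented by its pore-forming subunit *Cacna1c* (Cav1.2) and the auxiliary subunit *Cacnb2*, which brings the pore to the membrane. *Cacna1c* stood at 251 CPM (247 to 255) in Control VSMCs and at 241 CPM (229 to 254) in AngII+HS VSMCs. Its log2 ratio was −0.06 (−0.14 to 0.02), and the counting intervals overlapped. *Cacnb2* stood at 442 CPM (436 to 447) and 378 CPM (363 to 393), a log2 ratio of −0.23 (−0.29 to −0.16). When every cell was thinned to 1000 UMIs, 20.8% of Control VSMCs and 23.4% of AngII+HS VSMCs had a *Cacna1c* UMI, beside 0.758% and 0.279% of T cells. For *Cacnb2* the thinned shares of VSMCs were 32.6% and 33.8%. Without thinning, the share was lower in AngII+HS in the largest subcluster of a finer VSMC clustering. It was 89.9% in Control and 83.5% in AngII+HS there, at median depths of 9602 and 9252.5 UMIs. The thinned levels, which also give each cell equal weight, turned the direction of both genes. They were 242 and 286 CPM for *Cacna1c* and 435 and 455 CPM for *Cacnb2*.

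The BK channel is built from the pore-forming subunit *Kcnma1* and, in smooth muscle, the auxiliary subunit *Kcnmb1*, which raises its calcium sensitivity. *Kcnma1* stood at 516 CPM (510 to 523) in Control and 385 CPM (370 to 401) in AngII+HS VSMCs, a log2 ratio of −0.42 (−0.48 to −0.36). The thinned share of VSMCs with a *Kcnma1* UMI was 39.1% and 32.5%. *Kcnmb1* went the other way, from 147 CPM (144 to 151) to 181 CPM (170 to 191), a log2 ratio of 0.29 (0.20 to 0.39). *Kcnmb1* UMIs per *Kcnma1* UMI were 0.285 in Control and 0.469 in AngII+HS VSMCs, a change in log2 of 0.72 (0.61 to 0.83). Without thinning, 95.6% of Control and 86.8% of AngII+HS VSMCs had a *Kcnma1* UMI. Thinning left many of these cells without one by sampling alone. The thinned shares that follow therefore cannot decide whether the 2 transcripts lie in the same cells. Among thinned Control VSMCs, *Kcnmb1* was detected in 13.3% of the cells with a *Kcnma1* UMI and in 14.2% of those without one. In AngII+HS the shares were 15.9% and 15.5%.

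*Kcnq5* encodes a voltage-gated potassium channel of the M-current family that also opens near the resting potential of smooth muscle. It stood at 173 CPM (169 to 176) in Control and 144 CPM (134 to 153) in AngII+HS VSMCs, a log2 ratio of −0.27 (−0.37 to −0.17). The thinned share of cells was 15.0% and 15.1%. Leaving out the subclusters led by markers of other cell types, the ratio was −0.42, the lowest of 18 alternatives. The highest was 0.59, when an unnamed cluster described below was counted among the VSMCs. The ratio kept its direction in 14 of the 18.

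Calcium leaves the store through the ryanodine receptor *Ryr2* and the inositol trisphosphate receptor *Itpr1*. *Ryr2* stood at 283 CPM (278 to 288) in Control and 249 CPM (237 to 262) in AngII+HS VSMCs, a log2 ratio of −0.18 (−0.26 to −0.11). *Itpr1* stood at 363 CPM (358 to 368) and 268 CPM (255 to 281), a log2 ratio of −0.44 (−0.51 to −0.37), the lowest of the 9 genes in VSMCs. The thinned share of cells with an *Itpr1* UMI was 30.1% and 25.3%, while that of *Ryr2* was 23.6% and 21.7%. The thinned *Ryr2* level was 286 CPM in Control and 290 CPM in AngII+HS, and its ratio kept its direction in 13 of 19 alternatives. *Ryr2* UMIs per *Itpr1* UMI were 0.779 in Control and 0.931 in AngII+HS.

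*Atp2a2*, the SERCA2 pump, stood at 580 CPM (573 to 586) in Control and 541 CPM (523 to 560) in AngII+HS VSMCs. Its log2 ratio was −0.10 (−0.15 to −0.05). The thinned levels, with equal weight per cell, had the other direction, at 573 and 612 CPM, with a UMI in 42.7% and 44.5% of cells. *Pln*, phospholamban, the inhibitor of the pump, was scarce in VSMCs, at 5.28 CPM (4.69 to 5.94) in Control and 11.7 CPM (9.18 to 14.7) in AngII+HS. Its log2 ratio was 1.15 (0.76 to 1.52). This difference rested on few cells. The 73 *Pln* UMIs of AngII+HS VSMCs lay in 32 of 698 cells, and 10 cells held 65.8% of them. In Control 281 UMIs lay in 196 of 5102 cells, and the 10 cells with the most held 19.9%. Because 10 cells are a larger part of 698 than of 5102 cells, these shares do not compare concentration between the libraries. When doublets were not removed or when the number removed was doubled, *Pln* was under 2-fold higher, and within the second VSMC cluster its log2 ratio was −0.068 with 0.5 UMIs added.

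**Figure D2:**
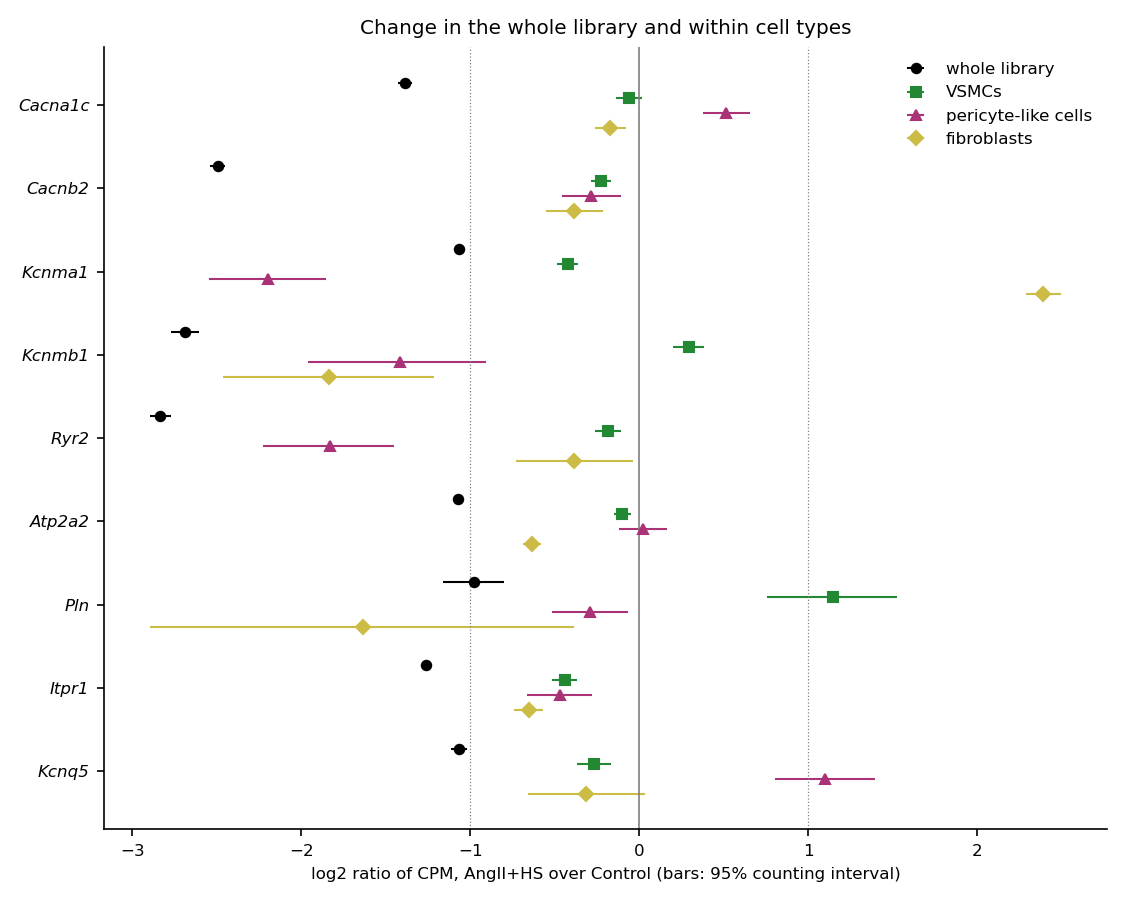
Log2 ratio of CPM (AngII+HS over Control) of each gene in the whole library, VSMCs, pericyte-like cells and fibroblasts. Bars are 95% counting intervals and dotted lines mark a 2-fold change. Whole-library ratios ran from −2.83 to −0.98, and in VSMCs only *Pln* lay past a dotted line.

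VSMCs were divided into 2 clusters, with 3195 Control and 507 AngII+HS cells in the first and 1907 and 191 in the second. In the first, *Ryr2* was lower in AngII+HS (log2 ratio −0.35, −0.45 to −0.26), and in the second it was higher (0.42, 0.29 to 0.55). *Cacnb2* (−0.27 and 0.19), *Cacna1c* (−0.12 and 0.28) and *Atp2a2* (−0.17 and 0.14) likewise had opposite signs, and no counting interval of these held 0. *Kcnmb1* was higher in both clusters (0.25 and 0.22). The AngII+HS cells of the second cluster had a median of 4868 UMIs against 10057 in Control, 5.87% against 3.69% mitochondrial UMIs and 60028 against 47152 CPM of the nuclear RNA *Malat1*. In the first cluster the median depths were 9616 and 9833 UMIs. The part of depth and RNA quality in these opposite ratios was not tested.

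Long genes as a class also differed between the second and the first VSMC cluster. Genes spanning at least 100 kb had a median log2 ratio of 0.26 between the second and the first cluster, and genes under 10 kb one of −0.12. Between AngII+HS and Control VSMCs, the median was −0.18 for genes of at least 100 kb, −0.04 for 10 to 100 kb and 0.06 for under 10 kb. In the GRCm39 annotation 6 of the 9 genes span at least 338 kb. *Kcnma1* on chromosome 14 (23339499 to 24064559, minus strand) spans 725 kb, *Cacna1c* on chromosome 6 spans 610 kb, *Kcnq5* on chromosome 1 spans 564 kb and *Ryr2* on chromosome 13 spans 554 kb. *Cacnb2* on chromosome 2 spans 386 kb and *Itpr1* on chromosome 6 spans 338 kb. *Atp2a2* on chromosome 5 spans 49.3 kb, *Kcnmb1* on chromosome 11 (33890243 to 33923641, plus strand) 33.4 kb and *Pln* on chromosome 10 (53199622 to 53223512, plus strand) 23.9 kb. The 2 members that were higher in AngII+HS VSMCs, *Kcnmb1* and *Pln*, were those with the shortest spans. The part of gene length in the differences between members was not tested.

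A finer clustering of VSMCs gave 7 subclusters, which differed in several members. *Kcnma1* was lower in AngII+HS in 7 of 7 subclusters, with log2 ratios from −1.61 to −0.23. The lowest ratio was in the subcluster led by *Vcam1*, *Dcn* and *Timp1*, where *Kcnma1* stood at 465 CPM in 172 Control cells and at 152 CPM in 46 AngII+HS cells. *Kcnmb1* had log2 ratios from 0.16 to 0.46 in 6 of 7, with a counting interval that held 0 in 4 of these, and stood at −0.05 (−0.53 to 0.41) in that subcluster. *Ryr2* was also lower in each of the 7, with log2 ratios from −0.67 to −0.05, some with an interval that held 0. The subcluster led by *Igkc*, *Smoc2* and *Igfbp2* held 0.588% of Control and 17.5% of AngII+HS VSMCs, at median depths of 3995 and 3326 UMIs. There *Atp2a2* stood at 646 and 903 CPM, *Cacnb2* at 773 and 886 CPM and *Ryr2* at 603 and 582 CPM. The part of this shift between subclusters in the VSMC ratios was not tested. The *Pln* difference lay mainly in the subcluster led by *Sparcl1*, *Fgf14* and *Palld*, with 12.7 CPM in 990 Control cells and 60.1 CPM in 89 AngII+HS cells. That subcluster held 50 of the 73 AngII+HS *Pln* UMIs. Markers of other cell types were present in VSMCs too. The summed level of 5 fibroblast markers was 1574 CPM in Control and 3954 CPM in AngII+HS. That of 5 neutrophil markers was 5.23 and 159 CPM and that of 7 pericyte markers 5620 and 6540 CPM. None of these markers was at 0. Most of the fibroblast sum was *Col1a1* (542 and 1530 CPM) and *Col3a1* (1005 and 2261 CPM). *Dcn* stood at 17.6 and 100 CPM, *Lum* at 3.74 and 57.3 CPM and *Pdgfra* at 5.51 and 5.14 CPM. Most of the pericyte sum was *Rgs5* (5367 and 6071 CPM), which was higher in VSMCs than in pericyte-like cells. The fibroblast and pericyte sums therefore do not measure other cells among VSMCs. The part of other cell types' markers in the ratios was not tested. In 4 subclusters such a marker was among the 10 leading genes. Without them (3637 cells left, 258 of them AngII+HS) the ratios were −0.62 for *Kcnma1*, −0.31 for *Cacnb2* and 1.98 for *Pln*. The largest of the 4, with 1739 cells, was left out for the endothelial marker *Pecam1* alone (80.9 and 16.9 CPM). Its *Acta2* stood at 14892 and 21741 CPM. These ratios are therefore not those of VSMCs freed of other cells.

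The plot of VSMC ratios under alternative settings shows how far each gene depended on the processing. *Kcnma1*, *Kcnmb1* and *Itpr1* kept their direction in 19 of 19 alternatives. Some of these could hardly turn a direction. A changed CPM denominator shifted all genes alike and by little, and dropping the minimum of UMIs left each ratio as it was. *Cacna1c* did so in 7 of 19. With equal weight per cell in place of summed UMIs, the median of the 9 genes was 0.060, and after thinning it was 0.067. Thinning also gives each cell equal weight, so its values cannot be read as a change of depth alone.

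**Figure D3:**
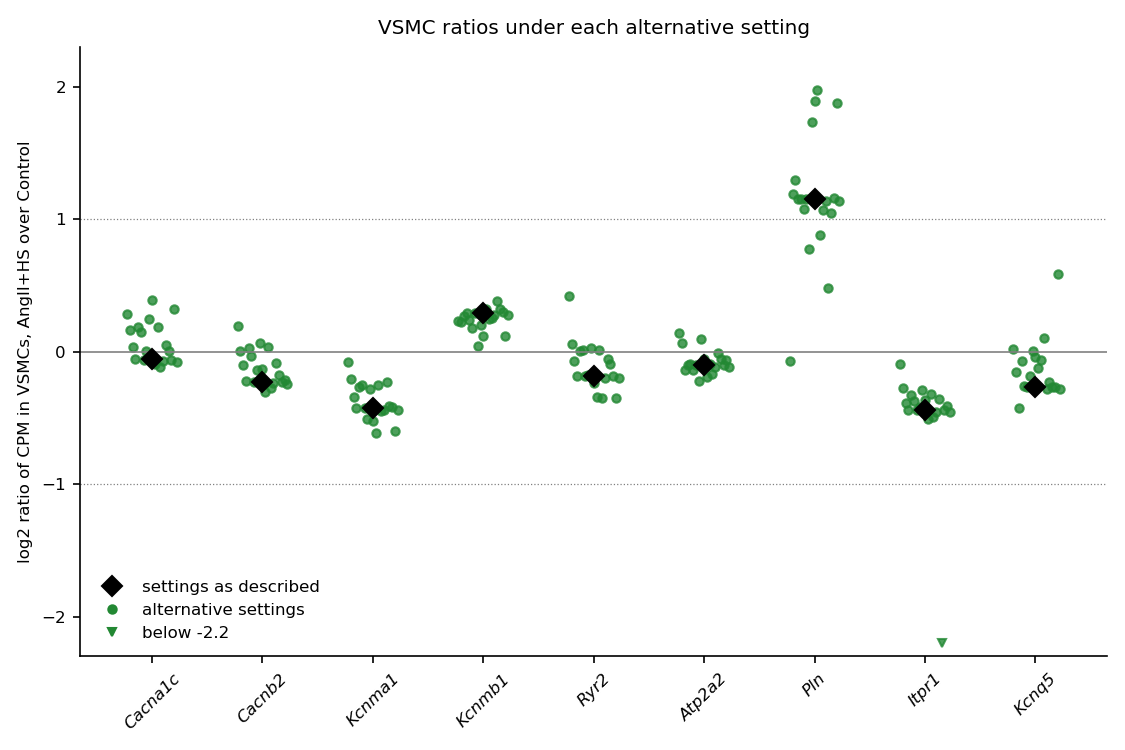
Log2 ratio of CPM in VSMCs (AngII+HS over Control) for each gene with the settings described (black diamonds) and under each alternative (green). *Kcnma1* and *Itpr1* stayed below 0 and *Kcnmb1* above 0, whereas the other 6 genes lay on both sides of 0. The triangle marks *Itpr1* after subtraction of the level in T and B cells, at −6.51.

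Pericyte-like cells, 168 in Control and 221 in AngII+HS, were the cells with the highest *Pln* level. *Pln* was also the first leading gene of this cluster, and the main clustering did not leave the members out. The median depth of these cells was 7957 and 4680 UMIs, with 5.90% and 2.04% mitochondrial UMIs and *Malat1* at 50492 and 42209 CPM. The part of depth and RNA quality in the ratios was not tested. Of the 9 genes, 3 were at least 2-fold lower, where 5.47% of 9300 genes were, and 1 was at least 2-fold higher, where 8.89% were. *Kcnma1* stood at 337 CPM (307 to 368) in Control and 73.6 CPM (58.6 to 91.2) in AngII+HS, a 4.58-fold lower level. *Ryr2* went from 220 CPM (197 to 246) to 62.1 CPM (48.4 to 78.4), 3.55-fold lower, and *Kcnmb1* from 97.1 CPM (81.5 to 115) to 36.3 CPM (26.1 to 49.3), 2.67-fold lower. *Kcnq5* went from 108 CPM (91.9 to 127) to 232 CPM (205 to 262), a log2 ratio of 1.10. *Cacna1c* was 546 CPM in Control and 781 CPM in AngII+HS, a log2 ratio of 0.52 (0.38 to 0.66). *Atp2a2* stayed at 625 and 636 CPM, and *Pln* stood at 297 CPM (269 to 327) and 243 CPM (215 to 273).

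The thinned share of pericyte-like cells with a *Kcnma1* UMI was 23.2% in Control and 5.43% in AngII+HS, and that for *Ryr2* was 14.3% and 4.07%. *Cacna1c* was detected as widely in AngII+HS, where 51.6% of thinned cells had a UMI against 44.0% in Control. Contractile genes differed in the same cells. *Acta2* stood at 14066 CPM in Control and 8803 CPM in AngII+HS, *Smtn* at 542 and 129 CPM and *Myh11* at 3677 and 2617 CPM. Of 7 pericyte markers 6 were higher in AngII+HS, among them *Notch3* (611 and 1168 CPM), *Higd1b* (34.0 and 126 CPM) and *Ndufa4l2* (50.3 and 242 CPM), and *Cspg4* was lower (206 and 141 CPM). *Rgs5*, 1 of the 7, was higher in VSMCs (5367 and 6071 CPM) than in these cells (1665 and 3636 CPM). In Control, these cells had *Myh11*, *Acta2*, *Tagln* (11309 CPM) and *Lmod1* (694 CPM) above the VSMC levels of 3283, 13215, 9635 and 666 CPM. *Cnn1* (773 against 939 CPM), *Smtn* (542 against 591 CPM) and *Myocd* (408 against 676 CPM) were lower than in VSMCs. The name therefore does not set the Control cells of this cluster apart from contractile smooth muscle. A shift in the mix of cells within the cluster and a change within its cells cannot be told apart here.

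In fibroblasts *Kcnma1* showed the largest ratio above 0 of any member in VSMCs, pericyte-like cells or fibroblasts. *Kcnma1* stood at 79.6 CPM (74.1 to 85.4) in 2610 Control fibroblasts and at 418 CPM (411 to 426) in 4732 AngII+HS fibroblasts, 5.26-fold higher (log2 ratio 2.39, 2.29 to 2.50). It was the 1 member of 9 at least 2-fold higher in these cells, where 7.64% of 15880 genes were. The thinned share of fibroblasts with a *Kcnma1* UMI was 6.64% and 24.5%, beside 1.52% and 1.21% in T cells. The AngII+HS UMIs were spread over 2379 cells, and the 10 cells with the most held 4.21% of them. The level was higher in each of the 3 fibroblast clusters that both libraries filled. In cluster 2 it was 79.7 and 140 CPM. The mural markers *Rgs5* (252 and 1425 CPM) and *Notch3* (29.3 and 197 CPM) and the median depth (2228 and 4845 UMIs) were also higher there in AngII+HS, and their part was not tested. The level went from 188 to 699 CPM in cluster 4 and from 23.1 to 105 CPM in cluster 7. Cluster 4 also made up 15.4% of Control and 44.4% of AngII+HS fibroblasts, and the pooled ratio exceeded each of the ratios within clusters (log2 0.81, 1.90 and 2.19). Cluster 4 had *Postn*, a matrix protein gene, at 144 CPM in Control and 520 CPM in AngII+HS. *Postn* was also higher in AngII+HS in cluster 2 (50.6 and 181 CPM) and cluster 7 (113 and 318 CPM).

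**Figure D4:**
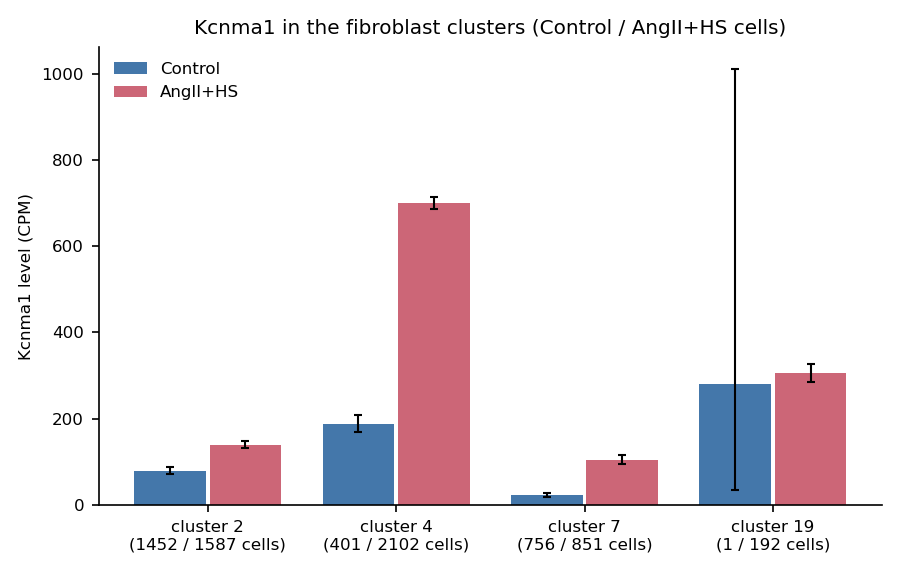
*Kcnma1* level (CPM) in the fibroblast clusters of Control (blue) and AngII+HS (red), with 95% counting intervals and the number of cells under each cluster. AngII+HS was higher in clusters 2, 4 and 7, and cluster 19 held 1 Control cell.

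The auxiliary subunit did not accompany *Kcnma1* in fibroblasts. *Kcnmb1* stood at 5.19 CPM (3.86 to 6.82) in Control and 1.45 CPM (1.04 to 1.97) in AngII+HS fibroblasts, 3.57-fold lower, with 51 and 41 UMIs in all. *Kcnmb1* and *Pln* (1.32 and 0.426 CPM) were the 2 members at least 2-fold lower in fibroblasts, where 8.26% of genes were. Smooth muscle transcripts were found in the same cells, with *Myh11* at 106 and 42.7 CPM, *Cnn1* at 30.2 and 14.1 CPM and *Tagln* at 388 and 421 CPM, and their part in these low levels was not tested. *Kcnmb1* in T cells was 7.96 CPM in Control and 4.52 CPM in AngII+HS, and *Pln* there was 0 and 1.04 CPM. The *Kcnmb1* level in fibroblasts was not above that background, and the *Pln* counts were 13 UMIs in 4 Control cells and 12 UMIs in 9 AngII+HS cells, so neither ratio is read as a difference in expression. The remaining members were lower in AngII+HS fibroblasts, *Itpr1* (183 and 116 CPM, log2 ratio −0.65) and *Atp2a2* (415 and 267 CPM, −0.63) the most, while *Cacna1c* stood at 140 and 124 CPM. *Ryr2* stood at 10.4 and 7.95 CPM, beside 20.8 and 3.75 CPM in T and B cells together. Its ratio is therefore not read as a difference in expression. *Cacnb2* stood at 43.1 and 33.0 CPM, beside 20.8 and 4.34 CPM in T and B cells, and the part of that background in its ratio was not tested.

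The promoters of the 2 BK subunits are shown because the cell type with most of their UMIs differed in AngII+HS. There fibroblasts held 77.0% of the *Kcnma1* UMIs and VSMCs 83.3% of the *Kcnmb1* UMIs, on 35.1% and 7.75% of all UMIs. The 2 transcripts did not lie in separate cell types. AngII+HS VSMCs had *Kcnma1* at 385 CPM, beside 418 CPM in fibroblasts, and *Kcnmb1* at 181 CPM. Both transcripts were also found in pericyte-like cells, *Kcnma1* at 337 and 73.6 CPM and *Kcnmb1* at 97.1 and 36.3 CPM. The sequences are the 250 bases before the RefSeq start site on GRCm38.p6, 5′ to 3′ on the gene's strand, with each CG dinucleotide in capitals. That of *Kcnma1* lies at chr14:24004206-24004455 (minus strand) and that of *Kcnmb1* at chr11:33962763-33963012 (plus strand).
Kcnma1: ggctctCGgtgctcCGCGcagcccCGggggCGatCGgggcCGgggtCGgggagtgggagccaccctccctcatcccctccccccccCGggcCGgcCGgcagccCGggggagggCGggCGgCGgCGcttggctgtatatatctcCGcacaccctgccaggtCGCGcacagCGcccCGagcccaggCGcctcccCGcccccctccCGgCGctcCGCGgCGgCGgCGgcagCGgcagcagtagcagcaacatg
Kcnmb1: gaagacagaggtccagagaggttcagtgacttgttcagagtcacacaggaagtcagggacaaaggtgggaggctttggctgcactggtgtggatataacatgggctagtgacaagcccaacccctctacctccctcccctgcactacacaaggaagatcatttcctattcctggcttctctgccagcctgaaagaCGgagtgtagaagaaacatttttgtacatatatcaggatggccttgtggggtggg

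The *Kcnma1* window held 31 CG dinucleotides and 79.2% G and C, and 94.8% of 32851 mouse promoter windows held fewer CG. The *Kcnmb1* window held 1 CG and 50.8% G and C, and 7.87% of windows held fewer. Low CG content was not shared by all members found mainly in mural cells, with 1 CG in the *Pln* window, 14 in that of *Ryr2* and 30 and 3 in those of *Cacnb2*. Windows were at hand for 7 of 9 members (11 windows in all), and CG counts ran from 1 to 48. The CArG box, the site bound by serum response factor in smooth muscle genes, was sought on both strands of the full 300-base windows and matched in none of the 11, where 1.63% of all windows held it. These letters say nothing on whether the factor binds elsewhere.

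The other cell types fell into 2 patterns. *Cacna1c*, *Cacnb2*, *Kcnma1*, *Kcnmb1*, *Ryr2* and *Pln* were low in endothelial and immune cells, at 38.9 CPM or less in each named type of either library other than VSMCs, pericyte-like cells and fibroblasts. For *Cacna1c* the order was pericyte-like cells, VSMCs and fibroblasts in either library, with intervals that did not overlap, and vascular endothelial cells (VECs) had 18.8 and 19.3 CPM. For *Kcnma1* the order changed, with VSMCs, pericyte-like cells and fibroblasts in Control and fibroblasts, VSMCs and pericyte-like cells in AngII+HS. *Atp2a2*, *Itpr1* and *Kcnq5* were expressed more widely. *Atp2a2* was found in each named type, from 44.2 CPM in Control neutrophils to 636 CPM in AngII+HS pericyte-like cells.

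*Itpr1* was as high in VECs (438 CPM, 418 to 458, in Control and 318 CPM, 305 to 332, in AngII+HS) as in pericyte-like cells (438 and 317 CPM). It was lower in AngII+HS in each vessel wall type, by amounts that varied between clusters, from −0.76 to −0.14 in the 2 VEC clusters, from −0.92 to −0.37 in fibroblasts and from −0.50 to −0.10 in VSMCs. The log2 ratio was −0.44 in VSMCs, −0.47 in pericyte-like cells, −0.65 in fibroblasts, −0.46 in VECs and −0.51 in lymphatic endothelial cells, beside medians over all genes from −0.15 to 0.10 in these types. In T cells *Itpr1* stood at 253 CPM (215 to 296) and 292 CPM (272 to 312), and in B cells at 281 CPM (227 to 344) and 234 CPM (214 to 255), with overlapping intervals in either type. A lower level was not particular to the vessel wall, as dendritic cells had 266 and 160 CPM (−0.74, −1.17 to −0.28). Macrophage clusters differed, with −1.54 in the one led by *Arg1* and 0.38 in the largest one led by *C1qa*. The larger neutrophil cluster had 29.4 and 64.4 CPM (1.13), on 8 UMIs in Control.

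*Kcnq5* was higher in lymphocytes than in VSMCs. B cells had 783 CPM (691 to 884) in 99 Control and 657 CPM (624 to 692) in 996 AngII+HS cells. T cells had 400 CPM (352 to 452) and 256 CPM (238 to 275). The T cell difference lay in the smaller T cell cluster, with 887 CPM in 36 Control and 307 CPM in 265 AngII+HS cells. The larger T cell cluster stood at 251 and 240 CPM. The 10 T cells with the most *Kcnq5* UMIs held 53.8% of them in Control and 14.4% in AngII+HS. For B cells these shares were 41.98% and 9.63%. Because 10 cells are a larger part of 133 Control than of 1115 AngII+HS T cells, the shares do not compare concentration between the libraries. The same holds for the 99 and 996 B cells. Plasma cells, found in AngII+HS only, had 230 CPM (208 to 253). Macrophages had 6.45 and 5.05 CPM and fibroblasts 10.4 and 8.34 CPM, so the lymphocyte level was not shared by all types. In Control VSMCs held 86.5% of the *Kcnq5* UMIs, and in AngII+HS B cells held 26.7%, an unnamed cluster 17.7%, VSMCs 16.5% and T cells 13.6%. Among B cells thinned to 1000 UMIs, 46.4% and 37.3% had a *Kcnq5* UMI.

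**Figure D5:**
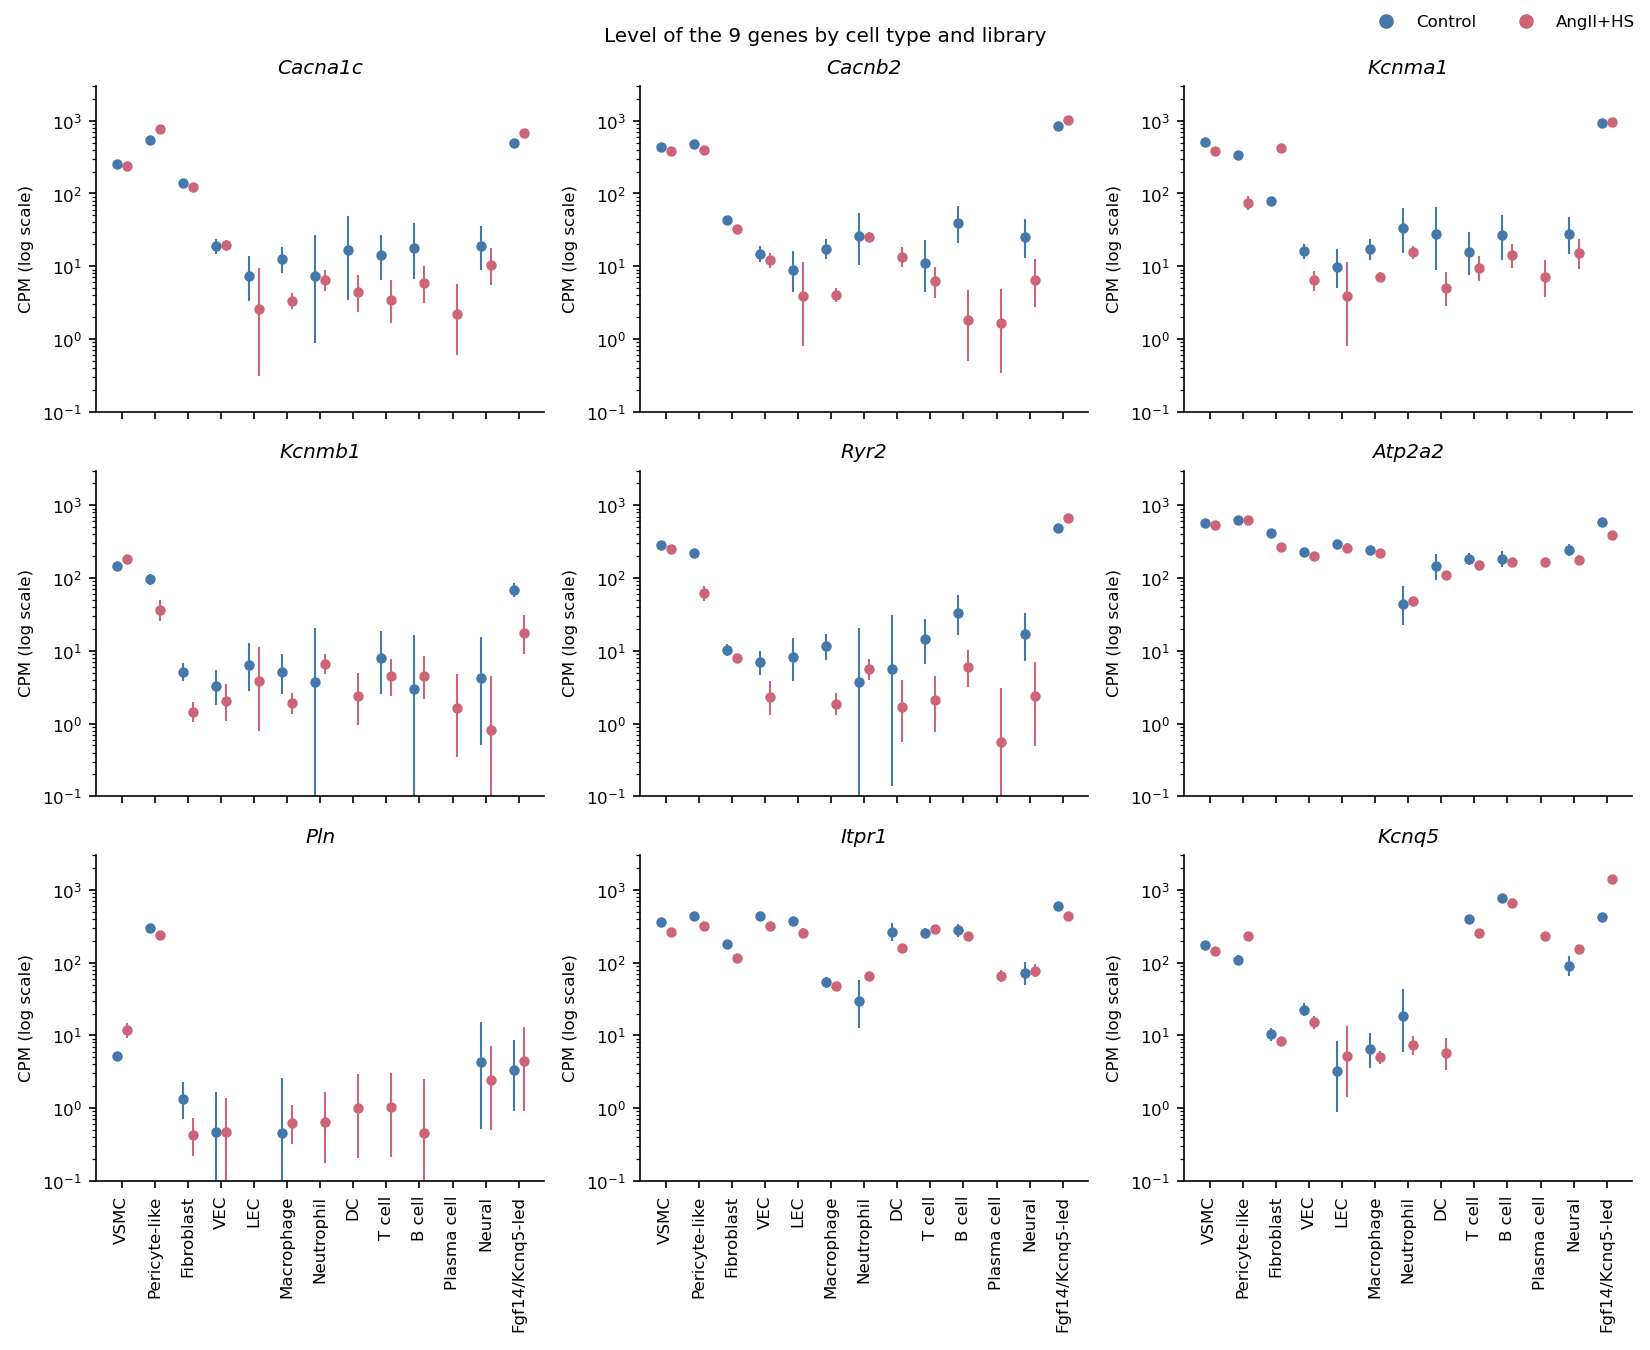
Level (CPM, log axis) of the 9 genes in each cell type, for Control (blue) and AngII+HS (red). Bars are 95% Poisson intervals, and values of 0 are not drawn. *Pln* stood highest in pericyte-like cells, *Kcnq5* at 783 and 657 CPM in B cells, and *Kcnma1* at 79.6 and 418 CPM in fibroblasts.

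A cluster of 364 Control and 239 AngII+HS cells was led by *Fgf14*, *Kcnq5* and *Akap6*, with *Cacnb2* also among its 10 leading genes, and was left unnamed. It had the highest levels of several members, with *Kcnma1* at 939 and 954 CPM, *Cacnb2* at 852 and 1025 CPM and *Ryr2* at 487 and 672 CPM. Its cells had a median of 2531 and 1692 UMIs, 9.42% and 5.34% mitochondrial UMIs and *Malat1* at 68443 and 83407 CPM. Its genes of at least 100 kb had a median log2 ratio of 0.92 over VSMCs, and its genes under 10 kb one of −0.15. *Kcnq5* in this cluster was 419 CPM (383 to 458) in Control and 1409 CPM (1321 to 1501) in AngII+HS, but 75.2% of the AngII+HS UMIs lay in 10 cells. When the libraries were merged without integration, 35 of its AngII+HS cells and 5 of its Control cells fell in a neuron-like cluster, and without them *Kcnq5* stood at 398 and 543 CPM. The same removal widened other differences, with *Cacnb2* at 886 and 1696 CPM, *Ryr2* at 472 and 861 CPM, *Cacna1c* at 510 and 1055 CPM and *Kcnma1* at 948 and 1216 CPM, while *Itpr1* went from a log2 ratio of −0.44 to 0.14. The other cells of this cluster held smooth muscle transcripts. *Myh11* stood at 2429 and 1542 CPM (3283 and 2808 CPM in VSMCs) and *Acta2* at 4416 and 2244 CPM (13215 and 18931 CPM in VSMCs). *Myocd* stood at 1032 and 1165 CPM, above its 676 and 448 CPM in VSMCs. These other cells are not assigned to a type, and the part of their RNA quality in these levels was not tested.

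The profile over 27 combinations of cell type and library showed which genes were most like each member, as a description over points that share a library and its depth. *Kcnmb1* was followed by *Plin4* (Pearson r = 0.96), *Cnn1* (0.95) and *Acta2* (0.94), the last 2 being contractile genes. *Ryr2* was followed by *Myom1* (0.96), *Itga8* (0.96) and *Myocd* (0.95), the last a smooth muscle transcriptional coactivator. *Pln* was followed by *Nrip2* (0.97), *Actc1* (0.96) and the potassium channel *Kcnk3* (0.95). *Nrip2* and *Kcnk3* were, like *Pln*, leading genes of the pericyte-like cluster. *Kcnma1* was followed by *Trabd2b* (0.95), *Col4a6* (0.94) and *Pi15* (0.94), and *Cacna1c* by *Enah* (0.96), *Dzip1l* (0.95) and *Dgkb* (0.94). *Cacnb2* was followed by *Rcan2* (0.92), *Ptger3* (0.91) and *Rgs17* (0.91), and *Atp2a2* by *Naf1* (0.92). The nearest genes were less alike for *Itpr1* (*Casz1*, 0.86) and *Kcnq5* (*Phtf2*, 0.89).

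The other genes of the same pathways were listed by function and read in VSMCs against the shares of all genes past 2-fold given above. Of 11 other voltage-gated calcium channel subunits with at least 20 UMIs, 4 were at least 2-fold lower and 2 at least 2-fold higher, with a median log2 ratio of −0.27. Of the 4 lower ones, all but *Cacna2d3* had only 1 or 2 UMIs in AngII+HS. The most abundant, the auxiliary subunit *Cacna2d1*, stood at 375 and 328 CPM (−0.19), *Cacna2d3* at 9.03 and 1.77 CPM (−2.35), *Cacna1d* at 15.4 and 8.99 CPM (−0.78) and *Cacnb3* at 9.23 and 19.6 CPM (1.08). Of 21 other potassium channel subunits, 7 were at least 2-fold lower and 2 at least 2-fold higher, with a median of −0.50. Of the 7, *Kcne1* and *Kcnk5* had no UMI in AngII+HS, and with both set to a floor of 3 UMIs the count was 5 and the median −0.37. Among those 5, *Kcnmb4*, *Kcnn3* and *Kcna2* had only 4, 4 and 5 UMIs in AngII+HS. *Abcc9*, the sulfonylurea receptor of the KATP channel, stood at 217 and 133 CPM (−0.71) and *Kcnab1* at 547 and 410 CPM (−0.42). *Kcnn3* had 3.74 and 0.642 CPM (−2.54), and *Kcnk3* went from 5.34 to 12.8 CPM (1.27, 0.89 to 1.63).

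Of 21 other genes of the sarcoplasmic reticulum and store refilling, 3 were at least 2-fold lower and 2 at least 2-fold higher, with a median of 0.20. Of the 3, *Atp2a1* had no UMI in AngII+HS, and at the floor 2 remained, with a median of 0.32. Only counts of 0 were set to the floor, and 1 of those 2, *Ryr1*, had 1 UMI in AngII+HS. The calcium-binding protein *Calr* (303 and 341 CPM, 0.17), *Fkbp1a* (266 and 357 CPM, 0.42), which binds ryanodine receptors, and *Irag1* (200 and 292 CPM, 0.55), a partner of *Itpr1* in relaxation, had higher levels in AngII+HS. *Jph1*, which anchors the store to the surface membrane, stood at 27.4 and 10.4 CPM (−1.39), and the store-operated channel *Orai2* at 2.73 and 6.10 CPM (1.16). Of 15 plasma membrane pumps, exchangers and channels, 1 was at least 2-fold lower, on 2 UMIs in AngII+HS, and none higher. *Slc8a1*, the sodium-calcium exchanger, stood at 333 and 303 CPM (−0.14), *Atp2b4* at 253 and 219 CPM (−0.21) and *Atp2b1* at 172 and 198 CPM (0.20). *Ano1* stood at 34.7 and 55.4 CPM (0.67) and *Trpc1* at 36.0 and 20.5 CPM (−0.81). Of 21 calcium-dependent kinases, phosphatases and relaxation genes, 2 were at least 2-fold lower and none higher, with a median of −0.35. *Nfatc1*, a calcineurin-dependent transcription factor, went from 146 to 59.4 CPM (−1.30, −1.45 to −1.15). *Mylk*, the kinase that triggers contraction, stood at 1282 and 1128 CPM (−0.19), *Prkg1* at 1227 and 1029 CPM (−0.25) and *Akap5* at 2.01 and 2.89 CPM (0.52, −0.29 to 1.25). None of 9 contractile genes was past 2-fold in either direction, with *Acta2* at 13215 and 18931 CPM (0.52), *Tagln* at 9635 and 14753 CPM (0.61), *Myh11* at 3283 and 2808 CPM (−0.23) and *Myocd* at 676 and 448 CPM (−0.59).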

How the data were processed

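Single cells of abdominal aorta were sequenced on a droplet platform that reads transcript 3' ends with UMIs. The authors counted UMIs per gene and barcode with Cell Ranger, and deposited raw counts without normalization. The methods name GRCm39 and the submitters' processing notes name mm10. The coordinates given here are those of GENCODE on GRCm39, which held 33185 of the 33696 gene IDs, and genes overlapping the members lie on the opposite strand. Promoters came from RefSeq on GRCm38.p6. The authors' doublet tool was not run here. Cells with at least 500 UMIs, 200 genes and under 20% mitochondrial UMIs were kept, and Scrublet (scanpy 1.11.5) removed the 9.03% of Control and 19.6% of AngII+HS cells with the highest scores, at 0.8% per 1000 cells. Seurat 5.3.0 under R 4.3.3 integrated the libraries (2000 variable genes, 30 components) and clustered cells at resolution 0.8. VSMCs were clustered again with 20 components at resolution 0.4. A cluster took the name of the best-scoring marker list (5 CPM added) if at least 3 markers were detected in 10% of its cells and its 10 leading genes did not speak for another type, a rule settled after clusters had been seen. CPM intervals are exact Poisson, log2 ratios exact conditional binomial and shares Clopper-Pearson, at 95%, and 0.5 UMIs were added for medians, counts past 2-fold and alternatives. The calculation was tested on simulated data for the VSMC comparison over 15578 genes, with 200 changed, and 99.0% had the right direction and 93.5% a true value within the interval. The simulated counts were Poisson, the model that the intervals assume, with no spread between cells or animals. The simulation therefore checks the arithmetic and does not show how well the intervals hold in the real data. Statistics were computed in scipy 1.17.1, with edgeR 4.0.16 for TMM factors, and figures drawn in matplotlib 3.10.9. The members, lists and settings were chosen with earlier results of these data known. All members are named; of each list, the 3 genes with the most UMIs in VSMCs and those with the highest and lowest ratio among genes with at least 100 UMIs are named, except for some genes that are not reported here, and for each member the 3 genes with the most similar log2(CPM + 5) profile. *Kcne1*, *Kcnk5*, *Kcnmb4*, *Kcna2*, *Atp2a1* and *Ryr1*, the marker genes and the leading genes of clusters fall outside this rule and were chosen after their values were seen.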

Additional observations from a re-analysis of the deposited data

Results flagged for a closer look

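Several members had ratios of opposite sign in 2 sets of cells, with neither counting interval holding 0. With 1 library per group, none of these differences between cell types was tested. *Kcnma1* had a log2 ratio of −0.42 in VSMCs and 2.39 in fibroblasts. *Kcnmb1* had 0.29 in VSMCs, −1.42 in pericyte-like cells and −1.84 in fibroblasts, where its level was not above that in T cells. *Pln* had 1.15 in VSMCs, −0.29 in pericyte-like cells and −1.64 in fibroblasts, the last on 13 and 12 UMIs. With double the doublets removed the pericyte-like value was 0.55. *Kcnq5* had −0.27 in VSMCs and 1.10 in pericyte-like cells. Between the first and the second VSMC cluster, *Cacna1c* had −0.12 and 0.28, *Cacnb2* −0.27 and 0.19, *Ryr2* −0.35 and 0.42 and *Atp2a2* −0.17 and 0.14.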

How the results depend on the processing

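No paired analysis was possible because each group had 1 library and the result came from no test. Values below are log2 ratios in VSMCs. The median of the 9 genes, −0.18, stayed within the counting interval of its middle gene under 8 of 19 alternatives. Among these were the ones that changed only the CPM denominator or the minimum of UMIs, which could hardly move it. It was −0.054 with double the doublets removed, −0.10 with the stricter cell filter, −0.056 when merged without integration, 0.0023 at resolution 1.2, 0.0092 when clustered without the members and listed genes, 0.060 with equal weight per cell, 0.067 after thinning, −0.076 after subtraction of the T and B cell level, and −0.31 without subclusters led by markers of other types. Definitions chosen after the data were seen gave 0.016 (VSMCs with the unnamed cluster) and 0.14 (the second VSMC cluster alone). The number of members at least 2-fold lower was 1 instead of 0 after that subtraction, where *Itpr1*, itself expressed in T and B cells, was at −6.51 and *Kcnq5* had no value. The number at least 2-fold higher was 0 instead of 1 without doublet removal, with double removal, when clustered without the members, and in the second VSMC cluster. *Pln* reversed in that cluster (−0.068), on 3 AngII+HS UMIs. The cause of these changes was not tested. Medians of the 6 pathway lists stayed within the interval of their middle gene in 3 of 3 alternatives each. That measure is loose where the middle gene had few UMIs, as in the potassium channel list (54 and 4 UMIs, −2.59 to 0.78). After subtraction of the T and B cell level, the median of the sarcoplasmic reticulum list went from 0.20 to 0.41. That of the plasma membrane list went from −0.039 to −0.22. Thinning and equal weight per cell were not applied to the lists. In pericyte-like cells *Kcnma1* ran from −2.28 to −2.06 and *Kcnq5* from 1.04 to 1.26, while *Pln* ran from −0.59 to 0.55, positive with double the doublets removed; merging without integration gave no pericyte-like cluster. *Kcnma1* in fibroblasts ran from 1.71 to 2.72. The 6230104 UMIs of AngII+HS VSMCs limit the precision of low genes such as *Pln*.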
